A study of Mus musculus with 12 samples.

Results

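The comparison described here asks which genes answered the protein SPARC differently in 2 kinds of mouse peritoneal macrophage, and which answered it alike. It uses 12 of the 12 libraries of the series, since each of the 4 groups enters the difference. All cells came from C57BL/6 mice and were washed out of the peritoneal cavity with 7 ml of saline and seeded at 3000000 cells a well, and cells that had not attached after 2 h were removed. Mice had received either 3% thioglycollate broth (TG), an irritant that draws monocytes into the cavity, 4 days before collection, or 2 injections of IL-4 complex (IL4c), in which an antibody bound to IL-4 prolongs its action, at 5 ug of IL-4 and 25 ug of antibody each, the last 2 days before collection. From each kind of mouse 3 wells were left untreated and 3 wells were given SPARC at 20 ug/ml for 24 h, and wells carry the numbers 1 to 3. The labels name no control protein for SPARC and do not say whether a number stands for a mouse, a pool of mice or a day, so the p-values reflect only how these wells vary, which may be technical.

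The value followed for each gene is the SPARC response in IL4c cells minus the SPARC response in TG cells, on the log2 scale, with each SPARC well set against the untreated well of its own number. A positive difference means that SPARC raised the gene more, or lowered it less, in IL4c cells. Of 47729 genes in the files, 15232 had enough counts to test. A gene is called when its Benjamini-Hochberg adjusted p, over those genes, is under 0.05 in the quasi-likelihood test of edgeR. Genes counted as rising or falling, or as changing in 1 kind of cell alone, are those whose response there was called. A response that was not called may still have the same direction. The values of one pair are log2 ratios of CPM (counts scaled to library size, wells 1 to 3 always given in that order) with a prior count of 2, so they understate the change of genes near 0.

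SPARC (osteonectin) is a protein that cells secrete into the matrix, where it binds collagens and tunes how cells attach. Type I interferons act through the receptor chains Ifnar1 and Ifnar2 and the kinases Jak1 and Tyk2, after which a complex of STAT factors and Irf9 binds an interferon-stimulated response element and switches on antiviral genes, among them those for antigen presentation by MHC class I. Cholesterol synthesis and uptake are driven by SREBP2 when sterol in the endoplasmic reticulum is low, while the liver X receptors (LXR) sense oxidised sterols and switch on cholesterol export. IL-4 acts through Il4ra, Jak1 and Jak3 and the factor Stat6, and is known for a macrophage state marked by Arg1, Mrc1, Retnla and lectins such as Mgl2.

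Library totals ran from 31501941 to 42288785 counts, so that 3 counts correspond to 0.0709 to 0.0952 CPM. The 10 macrophage markers were present in every library, with summed levels of 13730 to 35880 CPM, and this sum was 21720 to 28810 CPM in untreated IL4c wells and 13730 to 19480 CPM with SPARC. Lyz2, with 168500 to 1182000 counts, weighed most in it. Over the 10 markers 1 rose and 3 fell in IL4c cells, with a median response of 0.03. Both TG wells of number 1 differed from TG wells 2 and 3 in the summed levels of markers of other cell types. The 17 B cell markers summed to 3054 and 2322 CPM in wells 1 without and with SPARC, against 195.6 to 326.8 CPM in wells 2 and 3. The 11 mesothelial and fibroblast markers summed to 6.602 and 30.9 CPM against 130.9 to 229 CPM, and the 15 T and NK cell markers to 61.3 and 52.1 CPM against 390.4 to 876.2 CPM. Il7r held the highest counts of the T and NK list, 817 to 33500, while Lck had 16 to 305, Cd3e 2 to 109 and Trac 2 to 78. That sum thus mainly follows Il7r and does not show how many T or NK cells the wells held. The part of these other cell types in the differences was not tested. In whole wells, fewer cells of a type and less RNA per cell cannot be told apart.

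The difference was called for 472 genes, 3.1% of those tested, of which 228 (1.5%) had the more positive response in IL4c cells and 244 (1.6%) the more negative. At an unadjusted p under 0.05 there were 3313. The call rests on the pairing of wells by number: a fit that ignores the numbers called 0 genes, with 1612 at an unadjusted p under 0.05, and in it all 472 genes had the same sign and 329 of them an unadjusted p under 0.05. It also rests on single pairs. With both pairs 1 left out 2280 genes were called, with both pairs 2 left out 1 gene, and with both pairs 3 left out 24 genes. Leaving out TG pair 1 alone, 2678 genes were called, and 20 or 77 without TG pair 2 or 3. Without IL4c pair 1, 2 or 3 there were 12, 7 or 189. None of the 472 genes was called in each of the 3 fits that left out a number in turn, but 470 had the same sign in all of them and 466 also had an unadjusted p under 0.05 each time, the other 2 having too few counts to test without pairs 1. Since the pairs of 470 of the 472 genes do not overlap, their sign under these omissions is fixed by the choice of genes and is no sign of stability, while the adjusted p of each was lost at least once. Both scaling and tool moved the count as well: with library totals as the scale 350 genes were called higher and 174 lower in IL4c cells, and DESeq2 called 1098 genes.

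**Figure D1:**
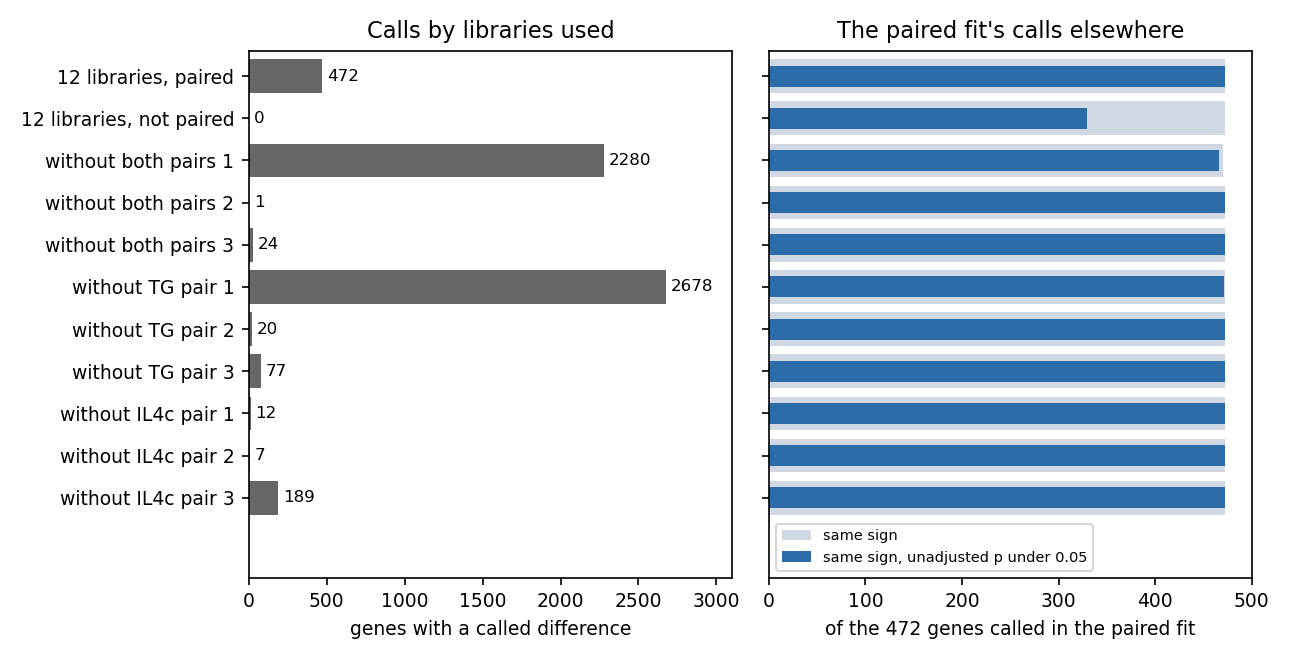
Left, the number of genes whose difference of SPARC responses was called (edgeR, adjusted p under 0.05), by the libraries used, from 0 without pairing to 2678 without TG pair 1. Right, of the 472 genes called with all 12 libraries paired, how many had the same sign (pale bars) and the same sign with an unadjusted p under 0.05 (dark bars) in each other fit; pairs that do not overlap fix the sign, so that the pale bars reach at least 470 genes in each fit shown.

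Within the called differences the larger response was mostly that of IL4c cells. SPARC changed 4165 genes in TG cells (27.3% of those tested) and 6880 in IL4c cells (45.2%). Of the 472 genes, 395 had the larger absolute response in IL4c cells. This count was not made over all tested genes, where more responses were called in IL4c cells too. A larger IL4c response thus cannot be said to be particular to the 472 genes. A rise called in IL4c cells alone accounted for 111 of them and a fall called there alone for 109. Another 84 rose in both kinds of cell and more in IL4c cells, and 68 fell in both and more in IL4c cells. A response called in TG cells alone accounted for 26 rises and 16 falls, and 16 rises and 4 falls called in both were larger in TG cells. Opposite responses, both called, were found in 38 genes, of which 25 rose in TG and fell in IL4c cells and 13 fell in TG and rose in IL4c cells. The 3 IL4c pairs lay wholly to one side of the 3 TG pairs in 470 of the 472 genes, and in 4331 genes (28.4%) of all tested. Over all tested genes the fitted responses in the 2 kinds of cell had a Pearson correlation of 0.713, given as a description since genes are not replicates.

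**Figure D2:**
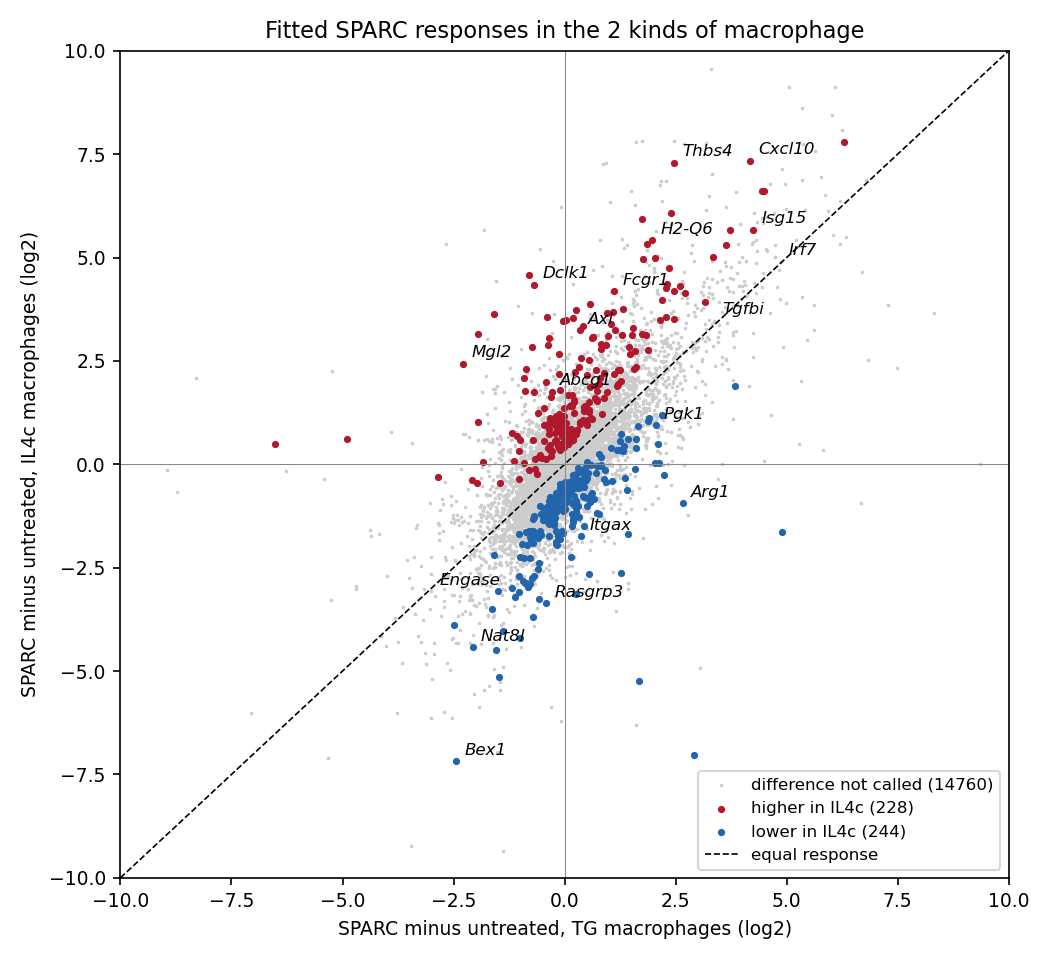
Fitted log2 SPARC response of each of the 15232 tested genes in TG cells (horizontal axis) against IL4c cells (vertical axis). Red and blue points are the 228 and 244 genes with a called difference, the dashed line marks equal responses, and 1 gene lies outside the axes; most grey points lie along the dashed line and Mgl2 and Arg1 lie in the quadrants of opposite response.

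Interferon-stimulated genes rose in both kinds of cell, and 13 of 51 tested rose more in IL4c cells while 0 rose more in TG cells. Over all tested genes 1.5% were called higher and 1.6% lower in IL4c cells. In TG cells 50 of the 51 rose and in IL4c cells 51. The median difference over the list was 0.55, beside 0.01 over all tested genes, and the median response was 2.20 in TG and 2.64 in IL4c cells. The median over the list was 1.81, 2.28 and 2.60 in the 3 TG pairs and 2.56, 2.84 and 2.73 in the 3 IL4c pairs, so TG pair 3 lay within the IL4c range. Without both pairs 1, 2 or 3, 12, 0 or 1 members were called higher, and without the pairing 0. In promoters of these genes the core of the response element, read as GAAA, then any pair of bases, then GAAA, on either strand and with overlaps counted, was found in 43.5% of 46 RefSeq windows (37 of the 51 genes matched, 250 bases before to 50 after a start), beside 3.27% of 13047 windows of all tested genes and 3.44% of 32851 windows in the whole table. It stood in 8.81% of 227 windows of genes called higher in IL4c cells, 2.44% of 246 windows of genes called lower, and 4.95% of 1110 windows of genes that rose alike. The windows below show it in capitals for genes with the larger rise in IL4c cells and, last, for Bst2, whose rise was alike in both; TTTC, any pair of bases and TTTC is the same element on the other strand. Sequences are RefSeq, build GRCm38.p6, written 5′ to 3′ on the strand of the gene.
Isg15 (chr4:156200850-156200921, minus strand): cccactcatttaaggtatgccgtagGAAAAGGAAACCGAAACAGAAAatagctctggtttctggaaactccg
Oas3 (chr5:120777700-120777759, minus strand): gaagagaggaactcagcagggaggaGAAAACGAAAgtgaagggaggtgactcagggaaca
Rsad2 (chr12:26456538-26456597, minus strand): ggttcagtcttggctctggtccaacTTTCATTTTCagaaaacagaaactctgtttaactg
H2-T22 (chr17:36042899-36042958, minus strand): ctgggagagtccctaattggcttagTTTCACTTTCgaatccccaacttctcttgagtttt
Cxcl10 (chr5:92349068-92349127, minus strand): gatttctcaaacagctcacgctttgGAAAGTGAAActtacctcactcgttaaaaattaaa
Bst2 (chr8:71537562-71537627, minus strand): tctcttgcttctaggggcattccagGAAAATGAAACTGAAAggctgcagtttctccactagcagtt
The element is present in genes of either kind, and a match here is a run of letters and not a measured binding site. Irf7 holds no match in its window.

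Isg15, a ubiquitin-like protein that interferon induces and that is attached to other proteins, stood at 5.3, 4.54 and 3.18 CPM in untreated TG wells and 86.8, 81.5 and 74.3 CPM in TG wells with SPARC. The untreated IL4c wells held 3.83, 2.51 and 3.62 CPM and those with SPARC 139.5, 189.9 and 181 CPM. All SPARC wells were above all untreated wells, untreated levels overlapped between injections, and IL4c wells with SPARC were above TG wells with SPARC. Its response was 4.24 in TG and 5.68 in IL4c cells, a difference of 1.44 (SE 0.27, adjusted p = 0.0434). Isg20, an antiviral exonuclease, stood at 2.92, 1.8 and 1.37 CPM in untreated TG wells and 11.8, 9.02 and 8.17 CPM in TG wells with SPARC. IL4c wells had 1.95, 2.33 and 1.3 CPM untreated and 27.3, 50.7 and 29.4 CPM with SPARC. As with Isg15, untreated levels overlapped between injections and the SPARC wells did not, with a difference of 1.97 (SE 0.23, adjusted p = 0.0176). Its pair responses were 2.0, 2.29 and 2.53 in TG and 3.77, 4.41 and 4.44 in IL4c cells. Rsad2 (viperin), which makes a chain-terminating nucleotide against viral polymerases, differed by 1.66 (adjusted p = 0.0272), Oas3, which makes the second messenger that starts RNase L, by 1.66 (adjusted p = 0.029), and Phf11d by 1.03 (adjusted p = 0.0263). Each of these genes rose in both kinds of cell, and the differences without each number in turn ran from 1.85 to 2.0 for Isg20, from 1.26 to 1.9 for Rsad2 and from 1.28 to 1.88 for Oas3.

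Other members of the same list rose by nearly equal amounts. Irf7, the factor that amplifies type I interferon production, stood at 48.6, 25.1 and 18.3 CPM in untreated TG wells and 879.8, 769 and 823 CPM in TG wells with SPARC. Levels in IL4c wells were 46.8, 60.4 and 59.8 CPM untreated and 1519, 1983 and 1495 CPM with SPARC. IL4c wells with SPARC ended higher than TG wells with SPARC and untreated IL4c wells were at or above 2 of the 3 untreated TG wells, and the rise was 4.86 in TG and 4.9 in IL4c cells, a difference of 0.04 (SE 0.32, adjusted p = 0.965), 95% interval −0.73 to 0.80. Oasl1, a relative of the oligoadenylate synthetases, rose by 4.1 and 4.12, with an interval of the difference of −0.42 to 0.46. Bst2 (tetherin), which holds budding virus at the cell surface, rose by 3.1 and 3.06, with a difference of −0.04 that became 0.03 with library totals as the scale. A total of 20 of the 51 members met the rule for the same response, that is, called in both with the same sign and with the 95% interval of the difference within 2-fold either way. Over all tested genes 14.9% met it, or 2263 of the 3235 called in both with the same sign. Members of this list, nearly all called in both, thus met it less often than other genes called in both.

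Of 24 tested genes of nucleic acid and Toll sensing and of interferon signalling, which act upstream of these genes, Jak2 was the 1 called, higher in IL4c cells, a share near the 3.1% of all tested genes. Without both pairs 1, 3 were called higher and 1 lower. Jak2, a kinase of cytokine receptors that include the interferon-gamma receptor, stood at 91.1, 70.3 and 64.6 CPM in untreated TG wells and 347, 155 and 167 CPM in TG wells with SPARC. For IL4c wells the values were 83.7, 79.8 and 65.7 CPM untreated and 529, 517 and 416 CPM with SPARC. Its pair responses were 1.93, 1.14 and 1.37 in TG and 2.66, 2.69 and 2.66 in IL4c cells, and the TG pair 1 with the most B cell RNA had the largest TG response. The difference was 1.19 (SE 0.19, adjusted p = 0.0328). Ifnar2 rose by 1.01 and 1.39, and Tbk1, a kinase that activates Irf3, by 0.46 and 0.79, and neither difference was called (adjusted p = 0.153 and 0.0712). Both met the rule for the same response. For Tlr4 and Irf3 no response was called in either kind of cell, and the 95% intervals of the differences were −0.29 to 0.10 and −0.20 to 0.37. Ifnb1, which encodes interferon beta, had 0 or 1 counts in every library and was not tested.

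MHC class I genes differed in the same direction. Of 21 genes of class I presentation, 20 rose in TG cells and 21 in IL4c cells. In the difference 6 rose more in IL4c cells, beside 1.5% of all tested genes called higher, and 0 more in TG cells. The median difference was 0.67. The count was 6, 0 or 3 without both pairs 1, 2 or 3, and 0 without the pairing. H2-Q6, a nonclassical class I gene of the Qa-2 group (chromosome 17, 35424850 to 35430055, plus strand of GRCm38), stood at 42.9, 19.6 and 14.5 CPM in untreated TG wells and 151, 73.4 and 67.2 CPM in TG wells with SPARC. Among IL4c wells there were 12.1, 11.7 and 9.74 CPM untreated and 454, 585 and 411 CPM with SPARC. Untreated IL4c wells were below untreated TG wells and IL4c wells with SPARC were above all TG wells. It rose by 1.98 in TG and 5.43 in IL4c cells, a difference of 3.45 (SE 0.15, adjusted p = 7.17e-04). It was called in 8 of the 9 fits that left out a number or a pair, a count that no named gene exceeded, with an adjusted p of 0.057 without both pairs 2. Its neighbour H2-Q7 (chromosome 17, 35439155 to 35443773, plus strand of GRCm38) rose by 2.35 and 4.75, a difference of 2.39 (SE 0.28, adjusted p = 0.0194). These 2 genes are near-identical copies whose reads the authors' counting may share, so they are not independent. H2-T22, a ligand of gamma delta T cells whose promoter is printed above, stood at 90.1, 78.5 and 58.8 CPM in untreated TG wells and 301, 266 and 230.2 CPM in TG wells with SPARC. In IL4c wells the levels were 60.2, 76.4 and 69.5 CPM untreated and 517, 732 and 566 CPM with SPARC. Its pairs were tight, with responses of 1.74, 1.76 and 1.97 in TG and 3.1, 3.26 and 3.02 in IL4c cells, and a difference of 1.31 (SE 0.11, adjusted p = 0.00852). H2-Q4 differed by 1.39 (adjusted p = 0.0231). Of 12 MHC class II presentation genes 0 were called different, and 0 also in the fits without a number and without pairing, with 2 at an unadjusted p under 0.05, while 2 were called lower without TG pair 1 alone.

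**Figure D3:**
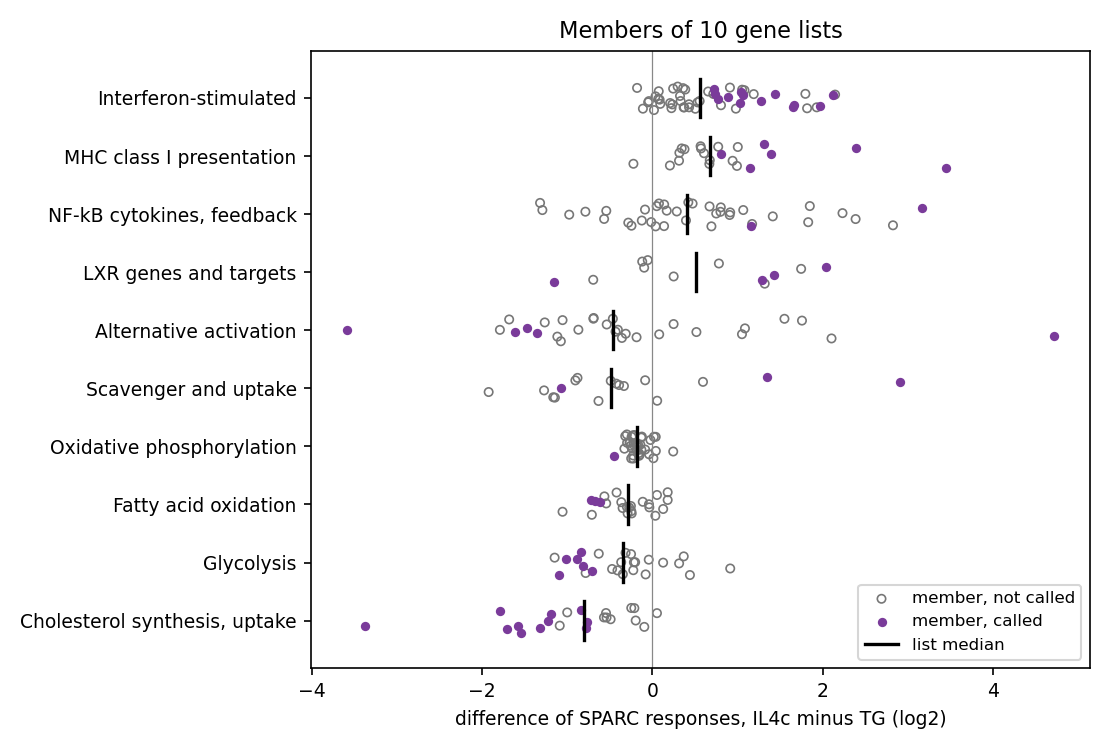
Each circle is a tested gene, placed by its difference of SPARC responses (IL4c minus TG, log2), in 10 gene lists; filled circles are called and black bars are list medians. Called interferon-stimulated and MHC class I genes lie to the right of 0, with medians of 0.55 and 0.67, and called cholesterol synthesis and glycolysis genes to the left, with medians of −0.81 and −0.35.

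Inflammatory cytokine genes mostly rose in both kinds of cell. Of 38 genes of NF-kB cytokines and feedback, 27 rose in TG and 27 in IL4c cells, 2 were called higher in IL4c cells and 0 lower, beside 3.1% of all tested genes called, and the median difference was 0.41. Leaving out both pairs 1, 11 were called higher and 2 lower, and 0 with both pairs 2 or 3 left out. Cxcl10, a chemokine for T cells that interferons induce, stood at 0.778, 1.54 and 0.341 CPM in untreated TG wells and 15.1, 19.6 and 10.3 CPM in TG wells with SPARC. The untreated IL4c wells held 0, 0.0303 and 0.213 CPM and those with SPARC 4.93, 11.9 and 24.3 CPM. Untreated IL4c wells were at or near the level of 3 counts, so the fitted difference of 3.17 (SE 0.55, adjusted p = 0.037) depends on the prior count and is given as a direction rather than a size, and the SPARC wells of the 2 injections overlapped. Tnip1, a brake on NF-kB, differed by 1.16 (adjusted p = 0.0464). Tnfaip3, another brake, rose by 1.03 and 1.94 and its difference missed the threshold (adjusted p = 0.0625). Ccl5, a chemokine for T cells and monocytes, rose from 22.4, 6.57 and 5.36 to 602, 736 and 806 CPM in TG and from 3.41, 3.0 and 2.93 to 542, 1277 and 847 CPM in IL4c cells, and its difference of 1.83 had an SE of 0.74 and was not called. Tnf rose by 1.7 and 1.99 and Il1b by 3.82 and 2.84, with intervals of the difference of −1.04 to 1.61 and −2.67 to 0.71. Il6 was at or under 3.23 CPM in TG wells and its pairs in TG cells, 3.75, −0.17 and −0.51, did not share a direction.

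Cholesterol synthesis and uptake genes fell in IL4c cells and changed little in TG cells. Of 22 tested, 11 had the more negative response in IL4c cells, beside 1.6% of all tested genes, and 0 the more positive. A difference below 0 was found in 21. In IL4c cells 16 fell and 2 rose, while in TG cells 2 fell and 3 rose, and the median response was −0.83 in IL4c and 0.06 in TG cells. When both pairs 1 were left out 14 members were called lower, with both pairs 2 or 3 left out 0, and without the pairing 0, where 15 members had an unadjusted p under 0.05. Idi1, an isomerase of isoprenoid units (chromosome 13, 8885501 to 8892451, plus strand of GRCm38), stood at 72.0, 39.5 and 44.3 CPM in untreated TG wells and 51.9, 41.1 and 42.2 CPM in TG wells with SPARC. IL4c wells had 26.4, 26.8 and 20.1 CPM untreated and 6.80, 5.58 and 6.41 CPM with SPARC. The 3 IL4c wells with SPARC were below all other wells, while TG wells with and without SPARC overlapped. Its response was −0.16 in TG cells, where it was not called, and −1.96 in IL4c cells, a difference of −1.79 (SE 0.20, adjusted p = 0.0149). Stard4, a carrier of cholesterol between membranes, differed by −1.7 (adjusted p = 0.016), and its TG response was not called either.

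Hmgcs1, which makes HMG-CoA, fell in both and more in IL4c cells, with a difference of −0.84 (adjusted p = 0.0272). Hmgcs1 was picked after its values were seen, because among the 18 RefSeq windows of the list (15 of 22 genes matched) its window alone holds the sterol response element read as TCAC, any base and CCAC. That element was found in 5.56% of the windows of the list, 1.12% of those of all tested genes and 1.24% of all windows in the table. It is shown in capitals, on the strand of the gene in build GRCm38.p6.
Hmgcs1 (chr13:119690189-119690247, plus strand): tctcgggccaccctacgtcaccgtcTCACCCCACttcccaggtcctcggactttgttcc
The absence of these letters from the other windows says nothing of SREBP2 at those genes.

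Genes of the LXR group moved the other way in part. Of 12 tested, 3 had the more positive response in IL4c cells and 1 the more negative, beside 1.5% and 1.6% of all tested genes. Abcg1, an exporter of cholesterol to HDL (chromosome 17, 31057675 to 31117988, plus strand of GRCm38), stood at 50.8, 269 and 247 CPM in untreated TG wells and 45.2, 206 and 202 CPM in TG wells with SPARC. For IL4c wells the values were 100.5, 85.1 and 142 CPM untreated and 318, 390.1 and 376 CPM with SPARC. TG pair 1 was far below the other TG wells with or without SPARC, and every IL4c well with SPARC was above every untreated IL4c well. Its pairs were −0.17, −0.38 and −0.30 in TG and 1.66, 2.19 and 1.41 in IL4c cells, a difference of 2.04 (SE 0.20, adjusted p = 0.0123). Mylip, a ubiquitin ligase that sterols induce, fell by 0.47 on the log2 scale in TG and rose by 0.96 in IL4c cells, a difference of 1.43 (SE 0.15, adjusted p = 0.0137). Scd1, a desaturase of fatty acids, fell in TG (−0.71) and rose in IL4c cells (0.58), although untreated TG wells spread from 13 to 123 CPM, and its difference was 1.29 (SE 0.13, adjusted p = 0.0131). Without the pairing the unadjusted p of Scd1 was 0.329. Fasn, the fatty acid synthase, which both LXR and SREBP factors drive, was the member called lower, at −1.15 (adjusted p = 0.0459).

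Genes of alternative activation differed in both directions. Of 29 tested, 1 had the more positive and 4 the more negative response in IL4c cells, beside 1.5% and 1.6% of all tested genes. The median difference was −0.46. Mgl2, a galactose-binding lectin (chromosome 11, 70130329 to 70137550, plus strand of GRCm38), stood at 1.86, 1.04 and 1.5 CPM in untreated TG wells and 0.274, 0.316 and 0.294 CPM in TG wells with SPARC. Among IL4c wells there were 21.1, 16 and 88 CPM untreated and 88.2, 118 and 455 CPM with SPARC. It was low in TG wells and fell further there, with pairs of −2.54, −1.57 and −2.15, and it rose in IL4c wells, with pairs of 2.06, 2.88 and 2.37. The difference of 4.72 (SE 0.34, adjusted p = 0.00588) ran from 4.63 to 4.75 without each number in turn, and it was called in 8 of the 9 fits that left out a number or a pair, with an adjusted p of 0.0613 without both pairs 3. Mgl2 shares sequence with Clec10a, which lies beside it, so reads may be shared between these 2 genes. Arg1, which breaks down arginine (chromosome 10, 24915221 to 24927484, minus strand of GRCm38), stood at 107, 311 and 227 CPM in untreated TG wells and 1430, 1267 and 1085 CPM in TG wells with SPARC. In IL4c wells the levels were 6841, 5721 and 2692 CPM untreated and 2968, 3121 and 1641 CPM with SPARC. SPARC raised it in each TG pair and lowered it in each IL4c pair, yet the lowest IL4c well with SPARC remained above the highest TG well. Its response was 2.66 in TG and −0.93 in IL4c cells (adjusted p = 0.0492), a difference of −3.59 (SE 0.46, adjusted p = 0.0225). The difference of Arg1 was called in 2 of the 9 fits that left out a number or a pair, in which it ran from −3.98 to −2.96 over all 9. Fn1, which encodes fibronectin, also rose in TG (0.93) and fell in IL4c cells (−0.43), a difference of −1.35 (SE 0.20, adjusted p = 0.0286). Fn1 belongs to the 14 monocyte and small macrophage markers too, whose sum was 48000 to 53830 CPM in untreated IL4c wells and 31820 to 35650 CPM with SPARC. Lyz2 and Chil3 held the highest counts of that list, up to 1182000 and 1086000, against at most 2589 for Ccr2. Of the 14 markers 3 rose and 6 fell in IL4c cells, so the sum is not a measure of that cell type.

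Socs2 and Cish, feedback genes of cytokine signalling, had a rise called in TG cells alone. Socs2 stood at 6.53, 1.85 and 2.57 CPM in untreated TG wells and at 14.1, 4.77 and 4.26 CPM with SPARC, with no called response in IL4c cells and a difference of −1.47 (SE 0.25, adjusted p = 0.0367). Cish, an inhibitor of STAT5 signals, rose by 2.1 in TG cells and had a response of 0.49 in IL4c cells that was not called, a difference of −1.61 (SE 0.32, adjusted p = 0.047). Of 12 genes of the IL-4 and IL-13 receptor signal, Cish and Jak3 were called lower and 0 higher, beside 1.6% and 1.5% of all tested genes. Jak3 rose by 0.36 in TG cells and its IL4c response of −0.18 was not called, a difference of −0.54 (SE 0.09, adjusted p = 0.0357). Il4ra rose in both, by 0.80 and 0.37, and Socs1 by 3.8 and 3.13, and neither difference was called. Il4ra met the rule for the same response and Socs1 did not. Mrc1, the mannose receptor, fell in both, with responses of −2.0 and −2.54 and a 95% interval of the difference of −1.72 to 0.65. For Retnla no response was called in either, with a level of 3019 to 3443 CPM in untreated IL4c wells and 8.55 to 55.9 CPM in untreated TG wells. Gata6, the factor of large resident peritoneal macrophages, fell in TG cells (−0.90) and its difference of 0.95 was not called, and 0 of the 20 genes of large resident macrophages were called different, with 8 at an unadjusted p under 0.05 and 8 called lower and 2 higher with both pairs 1 left out.

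**Figure D4:**
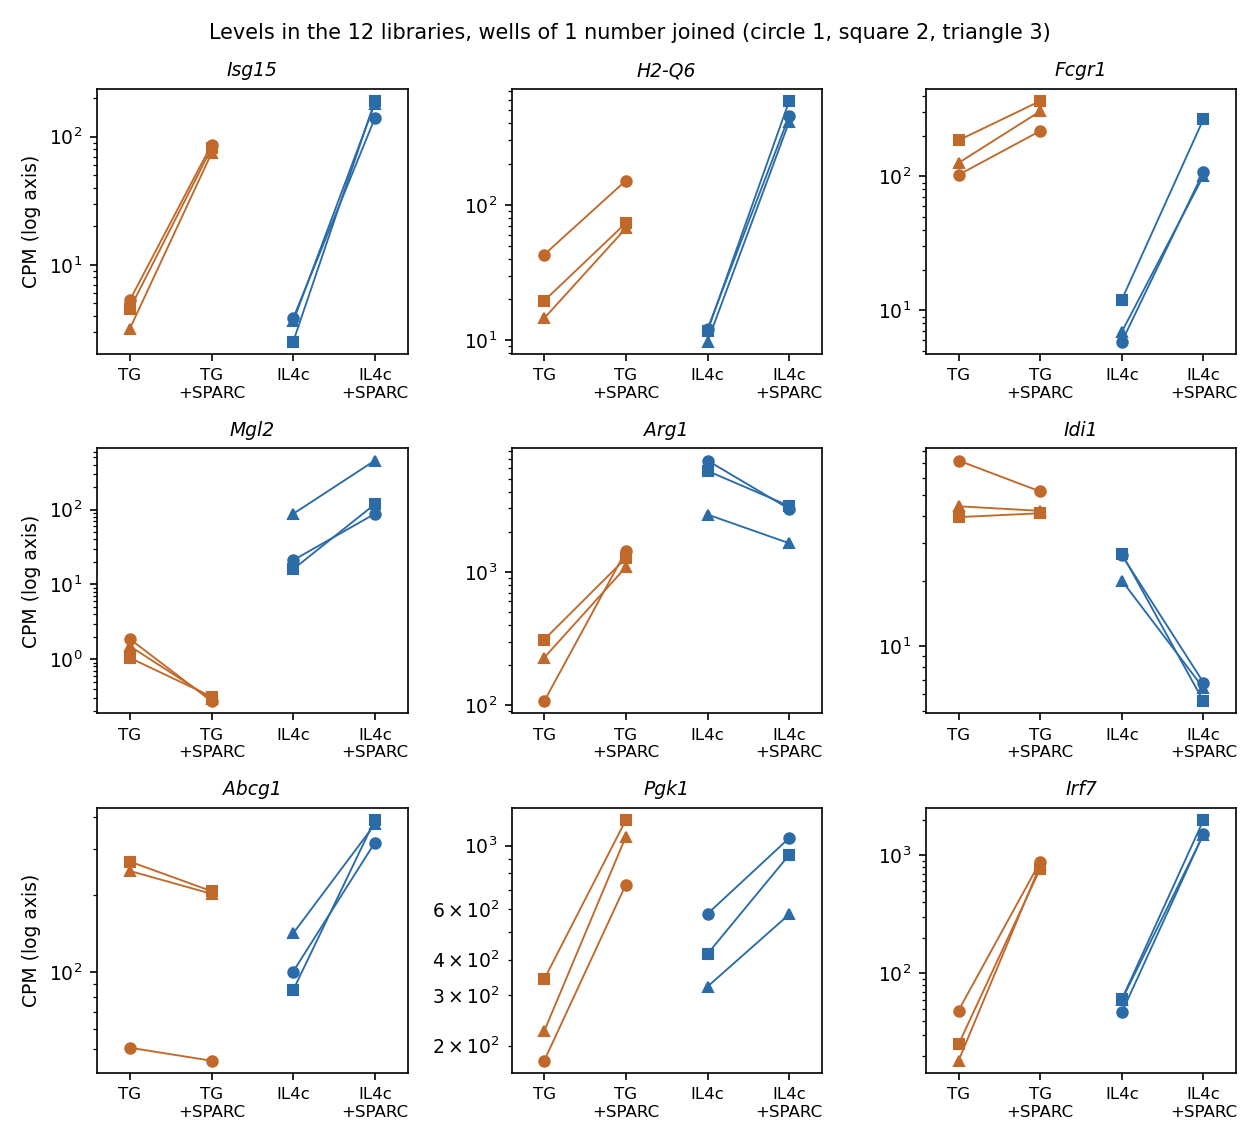
Levels in CPM (log axes) of 9 genes in the 12 libraries; each line joins the untreated and SPARC wells of 1 number (circle 1, square 2, triangle 3), orange for TG and blue for IL4c. Mgl2 and Arg1 slope in opposite directions in the 2 kinds of cell. Idi1 has a called fall and Abcg1 a called rise in IL4c cells alone. Pgk1 climbs more steeply in TG cells, and Irf7 climbs alike in both.

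Glycolysis genes rose in both kinds of cell and 6 of 25 rose more in TG cells, with 0 in the other direction. Over all tested genes 1.6% were called lower in IL4c cells. In TG cells 20 rose and 0 fell, and in IL4c cells 21 rose and 1 fell. The rule for the same response was met by 11, beside 14.9% of all tested genes. After both pairs 1 were left out 9 were called lower and 3 higher in IL4c cells, with both pairs 2 or 3 left out 0, with library totals as the scale 3, and without the pairing 0. Pgk1, a glycolytic kinase, stood at 177, 341 and 225 CPM in untreated TG wells and 731, 1228 and 1075 CPM in TG wells with SPARC. The untreated IL4c wells held 578, 419 and 322 CPM and those with SPARC 1062, 928 and 575 CPM. Untreated IL4c wells were on the whole higher than untreated TG wells, and the SPARC wells of the 2 injections overlapped. It rose by 2.05 in TG and 0.95 in IL4c cells, a difference of −1.09 (SE 0.15, adjusted p = 0.0227). Pfkl, a subunit of phosphofructokinase, differed by −1.01 (adjusted p = 0.0225), Gapdh by −0.81 (adjusted p = 0.0395) and Gpi1 by −0.84 (adjusted p = 0.0399). In each of the 4 the TG pairs lay above the IL4c pairs, which the choice of called genes nearly fixes and which is no further support. Pairs did not overlap in 470 of the 472 called genes, in 13 of the 25 glycolysis genes and in 28.4% of all tested genes.

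Called differences among nuclear genes of mitochondrial energy metabolism were lower in IL4c cells. Of 35 genes of oxidative phosphorylation, Cox7b was the 1 called, a share near the 3.1% of all tested genes, with a rise of 0.50 in TG cells, a response of 0.05 in IL4c cells that was not called, and a difference of −0.45 (SE 0.08, adjusted p = 0.0381). Of 24 genes of fatty acid oxidation 3 were called lower in IL4c cells, beside 1.6% of all tested genes. Acadl, a dehydrogenase of long-chain acyl-CoA, fell in IL4c cells from 146, 139.7 and 139 to 82.7, 78.1 and 88 CPM, with a difference of −0.62 (SE 0.10, adjusted p = 0.0293), Acaa2, the thiolase that ends a cycle of oxidation, fell in both and more in IL4c cells (−0.67, adjusted p = 0.0464), and Ppargc1b, a coactivator of mitochondrial genes, rose in TG cells alone (−0.73, adjusted p = 0.0444). Over the lists of oxidative phosphorylation and fatty acid oxidation the median difference was −0.18 and −0.28, and 13 and 14 members were lower at an unadjusted p under 0.05. Without both pairs 1, 5 and 9 members were called lower, without TG pair 1 alone 9 and 12, and with library totals as the scale 0 and 1.

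Among matrix genes and SPARC-binding receptors, 2 of 26 were called higher and 2 lower, beside 1.5% and 1.6% of all tested genes. Stab1, a scavenger receptor known to take up SPARC, stood at 333, 204 and 304 CPM in untreated TG wells and 315, 201 and 250 CPM in TG wells with SPARC. IL4c wells had 55.6, 85.7 and 99.95 CPM untreated and 167, 199 and 183 CPM with SPARC. Untreated IL4c wells were the lowest and SPARC brought them towards the TG wells, which it did not change by a called amount, with a difference of 1.35 (SE 0.18, adjusted p = 0.0225). Mmp14, a membrane-bound collagenase, rose in both and more in IL4c cells, by 1.6 and 2.36. Thbs1, a matricellular glycoprotein, fell in IL4c cells, with pairs of −1.21, −1.13 and −0.38, while the TG pairs were 0.52, 1.02 and 0.20, and its difference of −1.49 (SE 0.30, adjusted p = 0.0465) came with an unadjusted p of 0.21 without the pairing. Sparc itself stood at 1.23, 36.3 and 28.4 CPM in untreated TG wells and 4.24, 33.3 and 36.1 CPM in TG wells with SPARC. Levels in IL4c wells were 0.811, 0.484 and 2.18 CPM untreated and 0.607, 0.888 and 2.11 CPM with SPARC. TG pair 1 was near the IL4c level, no response was called, and the interval of the difference was −1.8 to 0.97.

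Fcgr1 and Axl, receptors for antibody and for dying cells, rose more in IL4c cells. Fcgr1, the high-affinity IgG receptor (chromosome 3, 96282909 to 96293969, minus strand of GRCm38), stood at 103, 186 and 126 CPM in untreated TG wells and 218, 365 and 306 CPM in TG wells with SPARC. For IL4c wells the values were 5.84, 12 and 6.92 CPM untreated and 108, 268 and 101 CPM with SPARC. It was low in untreated IL4c cells and SPARC brought 1 of the 3 IL4c wells within the range of the TG wells with SPARC. It rose by 1.11 in TG and 4.19 in IL4c cells, a difference of 3.07 (SE 0.17, adjusted p = 0.00114), and was called in 8 of the 9 fits that left out a number or a pair, with an adjusted p of 0.0597 without both pairs 2. Axl, a receptor tyrosine kinase that binds Gas6 on dying cells, stood at 62.1, 34.7 and 32.2 CPM in untreated TG wells and 55.3, 45.8 and 55.6 CPM in TG wells with SPARC. Among IL4c wells there were 5.13, 8.47 and 5.08 CPM untreated and 60.7, 98.2 and 31.5 CPM with SPARC. Its pairs were −0.17, 0.40 and 0.79 in TG and 3.55, 3.53 and 2.62 in IL4c cells, a difference of 2.91 (SE 0.34, adjusted p = 0.0211). Its relative Mertk fell in both and more in IL4c cells, by −1.08 (adjusted p = 0.0328), so the 2 receptors of this family differed in opposite directions. Of 17 scavenger and uptake genes, Axl and Stab1 were called higher and Mertk lower, beside 1.5% and 1.6% of all tested genes. The median difference over the list was −0.49 and 7 members were lower at an unadjusted p under 0.05. Leaving out both pairs 1, 10 of them were called lower and 2 higher.

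Genes of the lipid mediator pathway and of dendritic identity differed singly. Ptgs1, the constitutive cyclooxygenase, rose in IL4c cells alone, from 41.4, 40.8 and 52.7 to 81.4, 90.2 and 90.2 CPM, with a difference of 1.29 (SE 0.21, adjusted p = 0.0328). Tbxas1, thromboxane synthase, fell in both and more in IL4c cells (−0.95, adjusted p = 0.0225), and Ltc4s, leukotriene C4 synthase, fell in IL4c cells alone (−1.38, adjusted p = 0.037). These were the 3 called among 13 genes, beside 3.1% of all tested genes. Itgax, which encodes CD11c, stood at 65.9, 208 and 243 CPM in untreated TG wells and 89.3, 274 and 295 CPM in TG wells with SPARC. In IL4c wells the levels were 55, 78.1 and 261 CPM untreated and 13.1, 21.8 and 106 CPM with SPARC. Its TG pairs were 0.44, 0.40 and 0.28 and its IL4c pairs −2.07, −1.84 and −1.3, a difference of −2.1 (SE 0.19, adjusted p = 0.00991), with an unadjusted p of 0.171 without the pairing, and the IL4c wells of number 3 were above the others of the same treatment. Irf8, a factor of monocytes and dendritic cells, fell in IL4c cells alone (−1.59, adjusted p = 0.0354). The 9 dendritic cell markers summed to 16.9 to 43.4 CPM in untreated IL4c wells and 10.1 to 18.6 CPM with SPARC, and to 15.1 to 48.3 and 20.2 to 82.0 CPM in TG wells, and their part in the falls of Itgax and Irf8 was not tested. Ddit3 (CHOP), a factor of the unfolded protein and integrated stress responses, stood at 13.8, 35.4 and 34.1 CPM in untreated TG wells and 14.3, 25.9 and 24.4 CPM in TG wells with SPARC. The untreated IL4c wells held 43.1, 32.6 and 33.5 CPM and those with SPARC 105, 111 and 122 CPM. The IL4c wells with SPARC were above every other well, with a difference of 1.94 (SE 0.20, adjusted p = 0.0137). Ddit3 was the only gene called among 22 of the unfolded protein response, a share near the 3.1% of all tested genes.

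Among the 177 genes with the more positive response in IL4c cells, a mean of at least 10 CPM in some group and pairs that did not overlap, the 12 largest differences included several not in the groups above. Dclk1, a microtubule-associated kinase, stood at 0.566, 8.53 and 6.85 CPM in untreated TG wells and 0.640, 4.14 and 4.23 CPM in TG wells with SPARC. IL4c wells had 0.454, 0.908 and 1.25 CPM untreated and 15.8, 24.4 and 13.9 CPM with SPARC. It rose in IL4c cells alone, with a difference of 5.04 (SE 0.46, adjusted p = 0.0122), and TG pair 1 lay below the other TG wells. Thbs4, a matricellular thrombospondin, stood at 0.236, 0.0782 and 0 CPM in untreated TG wells and 1.19, 0.230 and 0.353 CPM in TG wells with SPARC. Levels in IL4c wells were 0.260, 0.363 and 0.0532 CPM untreated and 32.9, 50.6 and 20.5 CPM with SPARC. TG wells held few counts, so its fitted difference of 4.83 (SE 0.77, adjusted p = 0.032) depends on the prior count. Dcn, which encodes the collagen-binding proteoglycan decorin, stood at 1.49, 20 and 17.4 CPM in untreated TG wells and 4.39, 17.1 and 16.9 CPM in TG wells with SPARC. For IL4c wells the values were 5.29, 4.51 and 10.8 CPM untreated and 58.9, 108 and 97.1 CPM with SPARC. It rose in IL4c cells alone (difference 3.45, SE 0.55, adjusted p = 0.0381). Dcn is one of the mesothelial and fibroblast markers, whose sum rose from 7.26 to 19.2 CPM in untreated IL4c wells to 61.9 to 113.8 CPM with SPARC, most of it Dcn, while in TG wells numbered 2 and 3 the sum was 130.9 to 151.2 without and 201.1 to 229 CPM with SPARC, and the part of such cells was not tested. Ms4a14, a membrane protein of the CD20 family, rose in IL4c cells alone from 2.27, 2.09 and 2.61 to 24.2, 33.6 and 23.8 CPM (difference 3.33, SE 0.27, adjusted p = 0.00798). Procr, the endothelial protein C receptor, rose in both and more in IL4c cells (2.95, adjusted p = 0.0425), as did Ip6k3, an inositol phosphate kinase (2.44, adjusted p = 0.0316).

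Among the 205 such genes with the more negative response in IL4c cells, the largest differences were falls. Bex1 stood at 0.731, 22.7 and 20.1 CPM in untreated TG wells and 0, 4.71 and 4.0 CPM in TG wells with SPARC. Among IL4c wells there were 2.53, 3.9 and 5.96 CPM untreated and 0, 0 and 0.0772 CPM with SPARC. IL4c wells with SPARC held at most a few counts, so SPARC lowered it to the limit of detection there and its fitted difference of −4.74 is a direction and not a size. Nxpe5 fell in IL4c cells from 54.5, 73.7 and 55.9 to 2.85, 4.37 and 2.85 CPM, with a difference of −3.2 (SE 0.55, adjusted p = 0.0428). Tnfsf14 (LIGHT), a TNF-family ligand, fell there from 18.4, 25.7 and 6.31 to 3.3, 2.05 and 1.83 CPM, with a difference of −3.2 (SE 0.48, adjusted p = 0.0312). Rasgrp3, an activator of Ras and Rap, stood at 26.5, 6.91 and 7.22 CPM in untreated TG wells and 30.1, 3.94 and 4.32 CPM in TG wells with SPARC. In IL4c wells the levels were 22.1, 24.4 and 22.4 CPM untreated and 2.48, 2.47 and 1.77 CPM with SPARC. Its fall was called in IL4c cells alone, with TG pairs of 0.19, −0.80 and −0.73 (difference −2.96, SE 0.30, adjusted p = 0.0137). The TG wells numbered 1 were higher than the other TG wells with or without SPARC. Nr4a1, an orphan nuclear receptor of early response, had a fall called in IL4c cells alone (difference −2.67, adjusted p = 0.0381). Its TG pairs were −0.79, −0.24 and −0.67, a smaller fall that was not called. Nat8l, which makes N-acetylaspartate (−2.36, adjusted p = 0.037), and Rab3il1, an exchange factor for Rab proteins (−2.09, adjusted p = 0.0211), fell in both and more in IL4c cells. The mitochondrial genes mt-Cytb and mt-Atp8, for cytochrome b and a subunit of ATP synthase, also fell in both. The first stood at 1972, 1246 and 1323 CPM in untreated TG wells and 1373, 665 and 648 CPM in TG wells with SPARC. The untreated IL4c wells held 1218, 1365 and 2026 CPM and those with SPARC 148, 118 and 409.6 CPM. The difference of mt-Cytb was −2.14 (SE 0.31, adjusted p = 0.029), and mt-Atp8 differed by −2.06 (adjusted p = 0.0465).

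**Figure D5:**
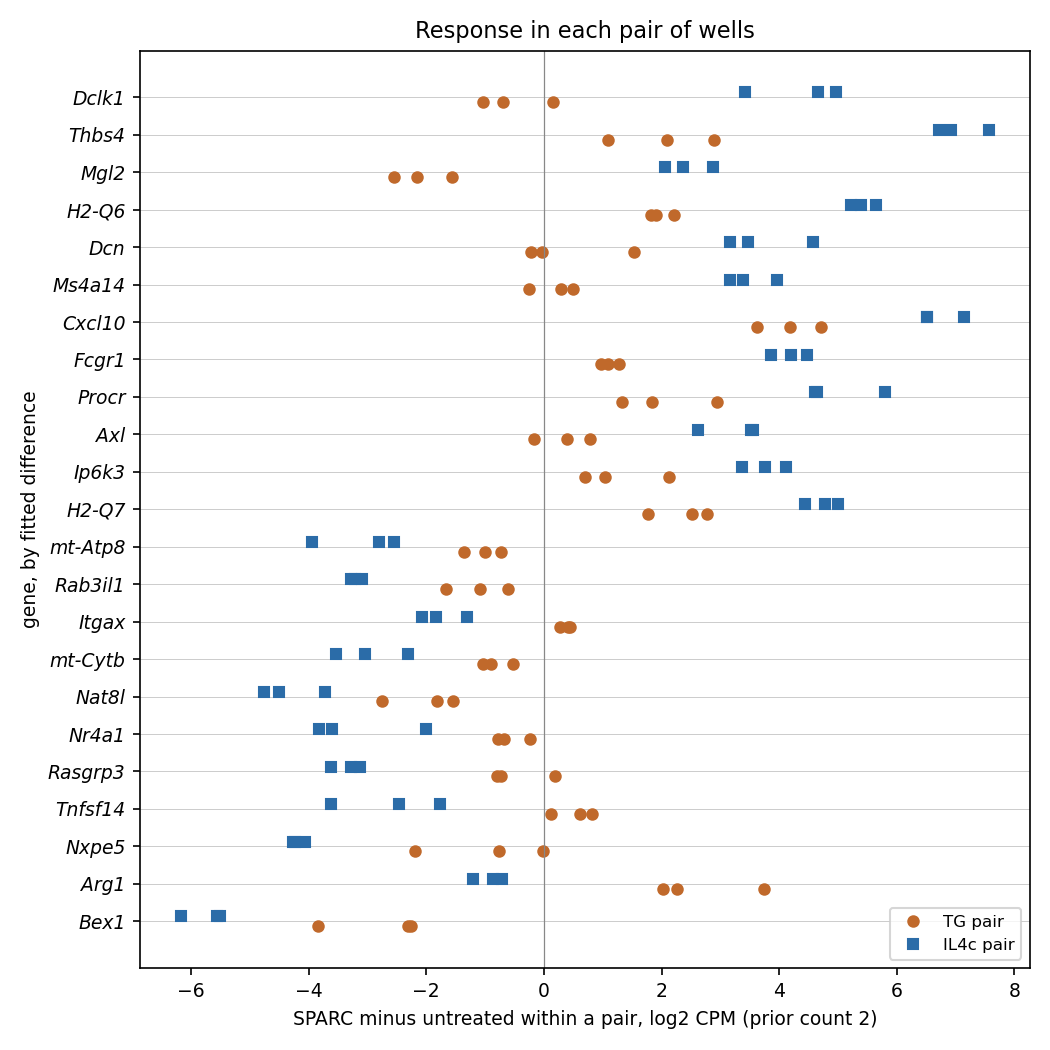
Log2 SPARC response within each pair of wells (prior count 2) for 23 of the genes named as the largest called differences, ordered by the fitted difference; orange circles are the 3 TG pairs and blue squares the 3 IL4c pairs. In each gene the IL4c pairs lie wholly to one side of the TG pairs, which the choice of these genes required; Mgl2 and Arg1 have their 2 sets of pairs on opposite sides of 0.

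More genes met the rule for the same response than had a called difference, but the 2 counts use unlike thresholds. The rule joins adjusted calls of both responses to an unadjusted interval of the difference. At an unadjusted p under 0.05 in edgeR the difference counted 3313 genes. Without TG pair 1, 2678 differences were called and 2289 genes met the rule. Of 3276 genes called in both kinds of cell, 3235 had the same sign and 41 opposite signs. The rule, which also asks that the 95% interval of the difference lie within 2-fold either way, held for 2263 genes (14.9% of those tested), of which 1128 rose and 1135 fell, and 244 of these changed at least 2-fold in both, 161 upward and 83 downward. Among the 2263 were 42 whose difference was called but small, Acaa2 among them. A further 842 genes of the same sign had neither a called difference nor an interval that narrow, so that their likeness is not settled. The median 95% half-width of the difference was 0.42. With both pairs 1, 2 or 3 left out 2142, 566 or 697 genes met the rule, 446 of the 2263 met it each time, and without the pairing 847 did.

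The largest equal rises reached well beyond the interferon genes. Tgfbi, a matrix protein that TGF-beta induces, stood at 167, 39.2 and 78.7 CPM in untreated TG wells and 1528, 557 and 672 CPM in TG wells with SPARC. Levels in IL4c wells were 11.8, 14.7 and 45.4 CPM untreated and 119.9, 167 and 543 CPM with SPARC. TG wells were mostly the higher ones, and the rise was 3.37 and 3.48. Slfn4, a Schlafen gene of interferon-treated myeloid cells, rose by 4.08 and 4.06, the receptor gene Tarm1 by 3.98 and 3.99, and the adhesion molecule gene Clmp by 4.07 and 3.84. The falls were smaller. Engase, a glycosidase of the cytosol, stood at 85, 25.6 and 38 CPM in untreated TG wells and 7.43, 4.34 and 5.09 CPM in TG wells with SPARC. For IL4c wells the values were 55.6, 98.9 and 48.6 CPM untreated and 9.6, 9.03 and 5.12 CPM with SPARC. It fell in each of the 6 pairs, by −3.01 and −3.08 on the fitted scale. Nr1d1 (REV-ERB alpha), a repressor of the circadian clock, had responses of −2.7 and −2.25, Tenm4, a teneurin, of −2.05 and −1.98, and Kctd12b of −1.98 and −2.54. For Kctd12b the interval of the difference was −0.97 to −0.15, which reaches nearly to the 2-fold limit. The intervals of Slfn4 (−0.9999 to 0.97), Tenm4 (−0.84 to 0.98) and Nr1d1 (−0.05 to 0.95) reached nearly to it as well. For these 4 genes likeness is settled only to about 2-fold, and Slfn4 barely met the rule.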

How the data were processed

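Polyadenylated RNA of 12 wells was sequenced. The authors deposited expected counts per gene, not scaled, of which 7.97% are not whole, and FPKM values, in which they corrected for gene length and depth. CASAVA, bcl2fastq 1.8.4, STAR and RSEM are named in the submitters' processing notes, without build, annotation or strand setting. Of 47729 gene identifiers, 98.9% matched GENCODE M21 (GRCm38), which gave symbols and positions.

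Counts were rounded and fitted with edgeR 4.0.16 in R 4.3.3 (TMM scaling, filterByExpr with a minimum count of 10, robust quasi-likelihood F test), with the 6 pairs of wells as a block, a SPARC effect in each injection and 4 residual degrees of freedom. Standard errors are the absolute log2 difference divided by the square root of F, and 95% intervals are not adjusted. Pairing rests on shared numbers: within an injection, wells of one number deviated from their groups with correlations of 0.342 to 0.735 in all 6 pairs, wells of different numbers with −0.66 to 0.507, and across injections the same number gave −0.178 to 0.25. TG numbers 2 and 3 were little told apart: untreated well 2 with SPARC well 3 gave 0.507, beside 0.533 within number 3 and 0.599 within number 2. Deviations from a group mean sum to 0, which by itself pulls correlations of different numbers below 0. Named were the 12 largest differences in each direction among called genes with a group mean of at least 10 CPM and pairs that did not overlap, 8 rising and 4 falling genes of the same response, the 4 members of each described list whose difference had the lowest p, and a fixed set of cytokine, interferon and IL-4 genes; predicted genes were passed over, and some genes that these rules name are not reported here. The members, the 29 gene lists and the rules were chosen with earlier results of these data known. The fit was tested on simulated data. Alternatives were no block, DESeq2 1.42.0, voom in limma 3.58.1, scaling by RLE or by library totals, log2 FPKM (pseudocount 1 or 0.1), no filter or one of 5 CPM in 3 libraries, a 2-fold minimum, a 1.5-fold margin, and each number, pair or library left out.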

Additional observations from a re-analysis of the deposited data

Results flagged for a closer look

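The SPARC responses of TG and IL4c cells differed, by the test of the difference itself, for 60 of the named genes. With the response of IL4c cells more positive, in 28 genes, the log2 differences were Dclk1 (5.04), Thbs4 (4.83), Mgl2 (4.72), H2-Q6 (3.45), Dcn (3.45), Ms4a14 (3.33), Cxcl10 (3.17), Fcgr1 (3.07), Procr (2.95), Axl (2.91), Ip6k3 (2.44), H2-Q7 (2.39), Abcg1 (2.04), Isg20 (1.97), Ddit3 (1.94), Rsad2 (1.66), Oas3 (1.66), Isg15 (1.44), Mylip (1.43), H2-Q4 (1.39), Stab1 (1.35), H2-T22 (1.31), Scd1 (1.29), Ptgs1 (1.29), Jak2 (1.19), Tnip1 (1.16), Phf11d (1.03) and Mmp14 (0.76). With the response of IL4c cells more negative, in 32 genes, they were Bex1 (−4.74), Arg1 (−3.59), Nxpe5 (−3.2), Tnfsf14 (−3.2), Rasgrp3 (−2.96), Nr4a1 (−2.67), Nat8l (−2.36), mt-Cytb (−2.14), Itgax (−2.1), Rab3il1 (−2.09), mt-Atp8 (−2.06), Idi1 (−1.79), Stard4 (−1.7), Cish (−1.61), Irf8 (−1.59), Thbs1 (−1.49), Socs2 (−1.47), Ltc4s (−1.38), Fn1 (−1.35), Fasn (−1.15), Pgk1 (−1.09), Mertk (−1.08), Pfkl (−1.01), Tbxas1 (−0.95), Hmgcs1 (−0.84), Gpi1 (−0.84), Gapdh (−0.81), Ppargc1b (−0.73), Acaa2 (−0.67), Acadl (−0.62), Jak3 (−0.54) and Cox7b (−0.45). Each passed an adjusted p under 0.05 in the paired edgeR fit, and none did in the fit without the pairing. No explanation of these differences was tested.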

How the results depend on the processing

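The number of called differences was 472 with pairing and 0 without the replicate block, 1098 with DESeq2, 422 (304 higher, 118 lower) and 300 (206 higher, 94 lower) with log2 FPKM and pseudocounts of 1 and 0.1, 25 with FPKM and no filter and 6 with a 2-fold minimum. RLE scaling gave 481, total-count scaling 524 (350 higher, 174 lower), limma-voom 536, no filter 484 and the strict filter 423. Leaving out a number or a pair gave 1 to 2678, and leaving out 1 library without the block 0 to 278, the highest without the untreated TG library 1 and 84 without the TG SPARC library 1. The cause of these shifts was not tested. Genes changed by SPARC in TG numbered 4165, with 1714 without the block, 2270 with unfiltered FPKM, 370 with the 2-fold minimum and 1234 to 4251 with a number or pair left out. In IL4c they numbered 6880, with 4237 without the block, 1026 with the 2-fold minimum and 3077 to 8297 with a number or pair left out. The same response was met by 2263 genes, by 847 without the block, 1315 with unfiltered FPKM, 1473 with a 1.5-fold margin, and 566 to 2289 with a number or pair left out.

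Of the named genes 60 had a called difference, with one sign in every fit that left out a number or a pair; pairs that do not overlap fix this sign, which is no sign of stability. Without the block all 60 lost the call (adjusted p 0.147 to 0.816) and 48 had an unadjusted p under 0.05; without TG pair 1, 57 were called. Of the 9 fits that left out a number or a pair, H2-Q6, Mgl2 and Fcgr1 were called in 8, more than any other named gene. Isg15, Cxcl10, Jak2, Arg1 and Pgk1 were called in 2 of them and mt-Atp8 in 0. Signs turned only for genes with no called difference. With a number or pair left out the difference of Irf3 ran from −0.057 to 0.17, of Tnf from −0.36 to 0.83, of Il1b from −1.92 to 0.031, of Il6 from −0.75 to 3.89, of Mrc1 from −1.08 to 0.035, of Retnla from −0.39 to 0.12 and of Sparc from −1.14 to 0.069, and Retnla stood at 0.015 without the block. Genes near the level of 3 counts, such as Bex1, Thbs4 and Cxcl10, have directions but no reliable sizes.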

Other observations

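Transcripts encoded by the mitochondrial genome, a group looked at after their values were seen, had the more negative SPARC response in IL4c cells throughout. Of the 13 protein-coding genes, 13 had a difference below 0, with a median of −2.03, and 5 were called lower and 0 higher. Among them mt-Co2 (0 to 40.6 CPM, SE 2.18) and mt-Co3 (SE 1.51) were poorly measured, and neither was called. A fall was called for 12 of the 13 in IL4c cells and for 3 in TG cells, where most of the other fitted responses were also below 0. Together the 13 genes held 1.47%, 1.62% and 2.20% of counts in untreated IL4c wells 1 to 3 and 0.413%, 0.345% and 0.800% with SPARC, against 2.28%, 1.34% and 1.42% in untreated TG wells and 1.52%, 0.981% and 0.883% with SPARC. The share was lower with SPARC in each of the 6 pairs, and the IL4c wells with SPARC were below all other wells. The share weighs mt-Co1 most, which had the highest level of the 13 in every library (2882 to 11910 CPM). The libraries were selected for polyadenylated RNA, and how this selection acts on mitochondrial transcripts was not tested.

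TG pair 1 was closer in its SPARC response to the IL4c pairs than to the other TG pairs. Over 15232 genes the log2 response of TG pair 1 correlated at 0.663 to 0.703 with the IL4c pairs and at 0.568 to 0.587 with the other TG pairs, while IL4c pairs correlated at 0.802 to 0.855 with each other. These correlations run across genes, which are not replicates, and carry no test.

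Cell cycle genes were called different in 0 of 30 cases (edgeR; 9 at an unadjusted p under 0.05, and 4 higher and 4 lower with both pairs 1 left out), with 12 falls and 3 rises called in IL4c and 0 falls and 3 rises in TG cells. Of 17 NRF2 antioxidant genes 0 were called different (0 at an unadjusted p under 0.05, and 3 higher and 1 lower with both pairs 1 left out). Of 21 interferon-gamma targets Cxcl10 was called higher and Irf8 lower, beside 1.5% and 1.6% of all tested genes. Of the 17 B cell markers a fall was called for 16 in IL4c and 11 in TG cells, and 0 rose in any of the 3 TG pairs. The rule for the same response was met by 8, beside 14.9% of all tested genes, and 0 were called different (11 at an unadjusted p under 0.05).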
